A study of Mus musculus with 24 samples.

Results

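*Grb10*, *Ddc*, *Cobl* and *Fignl1* lie next to each other on proximal chromosome 11, in the *Grb10* imprinted domain and its flanks. These 4 genes were taken by symbol from the 34745 genes of a table of RNA-seq counts, and all 4 passed the filter on low counts, as did 16026 genes in all. They had been picked with earlier results on M-Z+ and M-Z- mutant embryos in view. The differences of the 4 genes between these genotypes are therefore given as a description, with standard errors and without a p-value, and nothing is supported by them.

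RNA-seq had been performed with total 129/DBA hybrid mouse embryos at E13.5, with 1 library per embryo. The 6 M-Z+ embryos are *Zfp57*-/+, carrying the wild-type allele of the father, whereas the 6 M-Z- embryos are *Zfp57*-/- maternal-zygotic mutants. All 12 came from *Zfp57*-/- 129 mothers and *Zfp57*+/- (DBA*) fathers, so that every embryo lacked maternal *Zfp57* and carried the deleted allele on its maternal chromosome. No M+Z+ RNA-seq library and no allele-specific count was analysed here, and each count is a sum over both parental alleles. Sex, litter and batch are not given by the labels, nor is it said that embryos of 1 genotype came from separate litters, so the spread between replicates is that between these embryos. Total counts per library ran from 12005145 to 19216288, and no pair of libraries of 1 genotype matched within counting noise. Levels between embryos are given in CPM, which are counts on a shared library size scale after TMM normalization. *Zfp57* itself averaged 27.1 ± 8.25 CPM (M-Z+) against 24.5 ± 4.17 CPM (M-Z-; SD, n = 6 each). The ranges overlapped, at 19.1 to 40.8 CPM (M-Z+) and 17.8 to 27.8 CPM (M-Z-). The count is a sum over the whole *Zfp57* gene, and the extent of the deletion is not given in the sources used here. Whether these levels fit the genotype labels was not tested.

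ZFP57 is a KRAB zinc finger protein that binds the methylated TGCCGC hexamer and maintains DNA methylation at imprinting control regions (ICRs) on 1 parental allele. The *Grb10* ICR is methylated on the maternal chromosome from the oocyte onwards. In most mouse tissues *Grb10* is expressed from the maternal allele, whereas in neurons the paternal allele is used from other promoters. *Ddc* is expressed from both alleles in most tissues and from the paternal allele in the developing heart.

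The 4 genes are all transcribed from the minus strand in the RefSeq annotation. In the order of the chromosome (mm10 positions as deposited) they are *Fignl1* (ENSMUSG00000035455) at chr11:11787431-11808962, *Ddc* (ENSMUSG00000020182) at chr11:11814101-11898144, *Grb10* (ENSMUSG00000020176) at chr11:11930508-12038683 and *Cobl* (ENSMUSG00000020173) at chr11:12236608-12464960. The gap between *Fignl1* and *Ddc* is 5.14 kb, that between *Ddc* and *Grb10* 32.4 kb, and that between *Grb10* and *Cobl* 198 kb. *Ddc* and *Grb10* each have a pair of annotated starts, 7.74 kb and 9.45 kb apart, and the counts per gene do not separate transcripts from these starts. The sequences around the starts are shown because they are where the transcripts of the imprinted pair begin. Each runs 5′ to 3′ on the coding strand from 250 bases before the start to 30 bases after it, in RefSeq on GRCm38.p6 (mm10), and TGCCGC or its reverse complement GCGGCA is in capitals.
*Grb10* upstream start, chr11:12037391-12037670, minus strand: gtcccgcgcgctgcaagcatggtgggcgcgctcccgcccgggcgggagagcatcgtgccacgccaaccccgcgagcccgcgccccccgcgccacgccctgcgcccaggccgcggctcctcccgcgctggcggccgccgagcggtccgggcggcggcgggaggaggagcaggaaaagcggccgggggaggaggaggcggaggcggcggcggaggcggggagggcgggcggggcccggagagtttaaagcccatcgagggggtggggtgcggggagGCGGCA
*Grb10* downstream start, chr11:12027942-12028221, minus strand: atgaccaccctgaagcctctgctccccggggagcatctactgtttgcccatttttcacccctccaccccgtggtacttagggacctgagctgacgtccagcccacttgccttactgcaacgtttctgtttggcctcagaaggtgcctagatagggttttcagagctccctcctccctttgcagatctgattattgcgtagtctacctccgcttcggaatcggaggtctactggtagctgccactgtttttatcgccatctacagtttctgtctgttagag
*Ddc* upstream start, chr11:11898115-11898394, minus strand: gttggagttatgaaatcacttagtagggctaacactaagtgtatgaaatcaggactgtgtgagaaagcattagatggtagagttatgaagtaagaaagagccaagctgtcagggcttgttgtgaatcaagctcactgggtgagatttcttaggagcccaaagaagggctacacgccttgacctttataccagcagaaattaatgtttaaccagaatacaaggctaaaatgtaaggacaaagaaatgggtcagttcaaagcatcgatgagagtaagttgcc
*Ddc* downstream start, chr11:11890379-11890658, minus strand: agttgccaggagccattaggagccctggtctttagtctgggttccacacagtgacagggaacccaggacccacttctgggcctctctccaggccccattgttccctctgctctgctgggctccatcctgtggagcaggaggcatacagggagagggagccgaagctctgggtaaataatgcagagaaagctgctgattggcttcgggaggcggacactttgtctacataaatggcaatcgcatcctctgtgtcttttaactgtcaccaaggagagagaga

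The upstream *Grb10* start lies in a CpG-rich sequence, with 45 CpG in the 300 bases from 250 before to 50 after it and a GC content of 80%. Of all 32851 RefSeq promoters of that length, 98.1% have fewer CpG, and the median is 7. The downstream *Grb10* start has 9 CpG and the starts of *Ddc* have 2 and 5. Of the 7 annotated starts of the 4 genes, TGCCGC, searched for on both strands, was found only at the upstream *Grb10* start. There it reads GCGGCA on the coding strand, from base 25 of the transcript. The hexamer is present in 11.6% of all promoters of that length, and a match in these letters is a description, not a measured binding site. The starts of *Cobl* have 42 and 0 CpG, 52.8 kb apart, and the single start of *Fignl1* has 34.

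The 4 genes differ widely in their level in the total embryo. On the TPM scale, which is per length, *Grb10* had a mean of 529 TPM over the 12 embryos, rank 197 of the 16026 genes and above 98.8% of them. *Fignl1* had 18.4 TPM, *Ddc* 15.5 TPM and *Cobl* 4.92 TPM, above 52.0%, 47.5% and 22.5% of the tested genes. *Grb10* was thus far above its neighbours in every embryo, and in TPM *Cobl* was the lowest of the 4 in every embryo. In CPM, which are not per length, *Cobl* had a higher mean than *Ddc* in M-Z+ embryos, 19.05 against 15.9. In M-Z- embryos its mean was lower, 17.86 against 30.95 CPM. The order of *Fignl1* and *Ddc* in TPM was not the same in both genotypes. In M-Z+ embryos *Fignl1*, with 14.36 to 23.62 TPM, was above *Ddc*, with 8.839 to 11.66 TPM, without overlap. In M-Z- embryos *Ddc*, with 17.88 to 21.94 TPM, lay within the range of *Fignl1*, 8.764 to 23.42 TPM.

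*Ddc*, which encodes the dopa decarboxylase of dopamine and serotonin synthesis, had the largest difference of the 4 genes. In the M-Z+ replicates 1 to 6 it had 15.6, 16.4, 17.2, 19.2, 14.5 and 12.5 CPM, from 194 to 356 counts per library. In the M-Z- replicates 1 to 6 it had 30.8, 33.4, 31.9, 32.9, 31.2 and 25.5 CPM, from 362 to 449 counts. Every M-Z- embryo was above every M-Z+ embryo, the nearest being M-Z- replicate 6 and M-Z+ replicate 4. The means of the M-Z+ and M-Z- embryos were 15.9 ± 2.32 and 30.95 ± 2.84 CPM (SD, n = 6 each). The level in M-Z- embryos was 1.95-fold that in M-Z+ embryos, a log2 fold change of 0.96 with an SE of 0.108. Across the whole table a gene was called changed past 2 limits, 0.05 for the adjusted p of edgeR's quasi-likelihood test and 0.5 for the size of the log2 fold change. Of the 4 genes 1, *Ddc*, is among the 13 of 16026 called, 0.0811% of all tested genes, of which 7 were higher (0.0437%) and 6 lower (0.0374%). *Ddc* was also the only one of the 4 without overlap between the genotypes, as were 92 of all tested genes, 0.574%, of which 48 were higher (0.300%) and 44 lower (0.275%). Since the 4 genes were picked on this comparison, the call and the gap of *Ddc* restate the values that picked it, and nothing is read from these counts. A predicted transcript, 1700042O10Rik, lies within *Ddc*, but it had 0 to 7 counts per library.

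*Grb10*, an adaptor protein that binds the insulin and IGF receptors and restrains growth, had a slightly lower mean in M-Z- embryos. In the M-Z+ replicates 1 to 6 it had 1624, 1666, 1663, 1558, 1486 and 1792 CPM, from 20168 to 34397 counts per library. In the M-Z- replicates 1 to 6 it had 1469, 1478, 1244, 1329, 1218 and 1546 CPM, from 14794 to 21943 counts. The ranges overlapped, since M-Z- replicate 6 was above M-Z+ replicate 5, and that was the only 1 of the 36 pairs of embryos in which the M-Z- embryo was higher. The means were 1632 ± 105 CPM and 1381 ± 136 CPM (SD, n = 6 each). The log2 fold change was −0.24 with an SE of 0.0795, or −15.4% in level, which is within the fold limit.

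**Figure D1:**
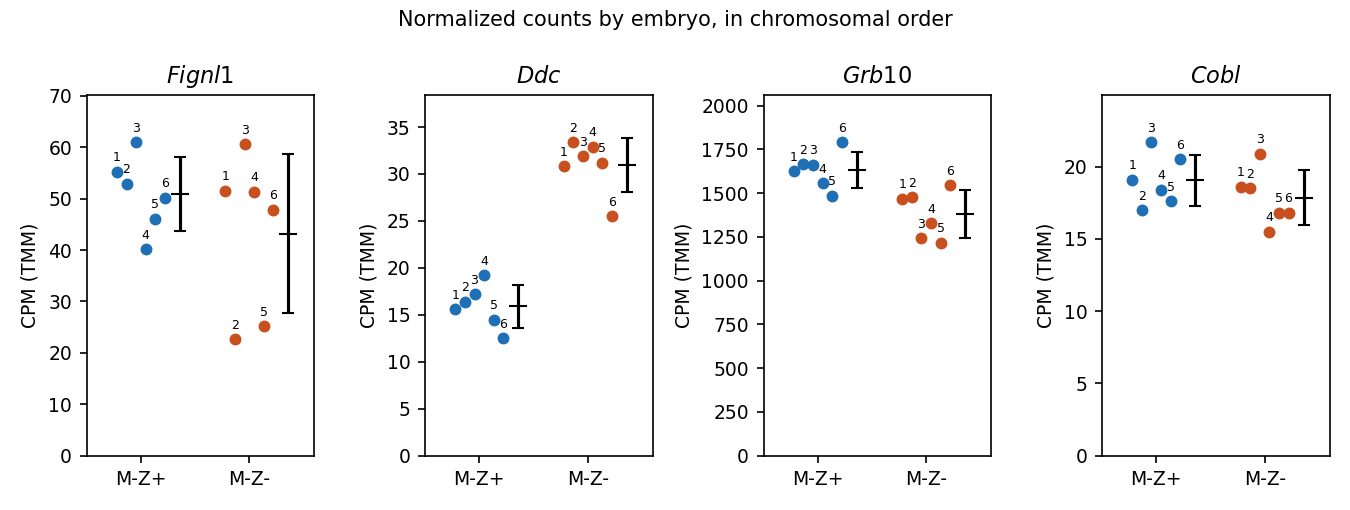
Level of each gene in each embryo in CPM after TMM scaling, with axes from 0, for 6 M-Z+ embryos in blue and 6 M-Z- embryos in orange; the numbers are replicate numbers, and the bars give the mean and SD of a genotype. *Ddc* separates the genotypes, at 12.5 to 19.2 CPM against 25.5 to 33.4 CPM, whereas the points of the other 3 genes overlap.

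The differences of *Ddc* and *Grb10* had opposite signs, and the ratio of these neighbours, given here in each embryo, restates both differences and adds no separate evidence. In TPM, *Ddc* was 1.81, 1.86, 1.95, 2.32, 1.84 and 1.31% of *Grb10* in the M-Z+ replicates 1 to 6. In the M-Z- replicates it was 3.96, 4.27, 4.83, 4.67, 4.83 and 3.11%. The means were 1.85 ± 0.325% and 4.28 ± 0.667%. The replicate with the most *Grb10* in each genotype, replicate 6, also had the least *Ddc*. In each genotype the library of replicate 6 also had the highest gene length slope, 0.668 (M-Z+) and 0.670 (M-Z-), a library property described below. M-Z- replicate 5 was near it, with a slope of 0.660 and 31.2 CPM of *Ddc*. Over the 12 embryos, with the mean of each genotype taken off, log2 CPM of *Grb10* and *Ddc* had a Pearson correlation of −0.42, a description over embryos that share their genotype means and library scaling.

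*Cobl*, which encodes the actin nucleator cordon-bleu, had closely similar levels in both genotypes. In the M-Z+ replicates 1 to 6 it had 19.1, 17.0, 21.7, 18.4, 17.6 and 20.5 CPM, with a mean of 19.05 ± 1.78 CPM (SD, n = 6). In the M-Z- replicates it had 18.6, 18.5, 20.9, 15.5, 16.8 and 16.8 CPM, with a mean of 17.86 ± 1.91 CPM. The M-Z- embryo was the higher in 11 of 36 pairs, and the log2 fold change of −0.09 was about the size of its SE, 0.0943. The transcript Gm12002 lies within *Cobl* and had 0 to 3 counts per library.

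*Fignl1*, the fidgetin-like AAA ATPase that acts in homologous recombination, varied more among M-Z- embryos than any other of the 4 genes. In the M-Z+ replicates 1 to 6 it had 55.2, 52.9, 61.0, 40.1, 46.1 and 50.2 CPM. In the M-Z- replicates it had 51.5, 22.6, 60.6, 51.3, 25.2 and 47.8 CPM. M-Z- replicates 2 and 5 were well below every other embryo, with 304 and 360 counts, while the other M-Z- embryos lay within the M-Z+ range. The coefficient of variation was 36% in M-Z- and 14.3% in M-Z+ embryos, and the SD of log2 CPM within genotypes was 0.449, against 0.12 for *Grb10*, 0.142 for *Cobl* and 0.18 for *Ddc*. The log2 fold change was −0.24 with an SE of 0.217, and it was −0.11 when M-Z- replicate 2 was left out, −0.13 when replicate 5 was, and −0.36 when replicate 3 was. *Fignl1* and *Grb10* had the same log2 fold change to 2 decimals, but that of *Grb10* came with a far smaller spread. In the same 2 embryos *Ddc* was at 33.4 and 31.2 CPM, *Cobl* at 18.5 and 16.8 CPM and *Grb10* at 1478 and 1218 CPM. Of these only *Grb10* in replicate 5 was the lowest of its genotype.

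Other genes of the same stretch of chromosome 11 were looked at to see how far differences extended. Within 1 Mb of *Grb10* or *Ddc* the table holds 10 further genes, of which 4 passed the filter and 6 had a mean under 10 counts. None of the 4 was called by edgeR, which called 0.0811% of all tested genes, or by DESeq2. None had an unadjusted edgeR p below 0.05, which 6.70% of all tested genes had. The nearest was *Ikzf1*, the lymphoid transcription factor Ikaros, 41 kb from *Ddc* on the far side of *Fignl1*. It averaged 14 ± 3.91 CPM (M-Z+) against 15.2 ± 6.10 CPM (M-Z-), a log2 fold change of 0.12 with an SE of 0.240 and an edgeR adjusted p of 0.897. *Vwc2*, a secreted BMP antagonist 545 kb away, had a log2 fold change of 0.30 with an SE of 0.177 and an edgeR adjusted p of 0.753. *Zpbp*, a protein of the sperm acrosome, and 4930415F15Rik had about 1 CPM each, with log2 fold changes of −0.33 (SE 0.303) and −0.02 (SE 0.273). Within 3 Mb 21 genes other than the 4 are listed, 7 were tested and again none was called by edgeR or had an unadjusted p below 0.05. The SEs of the 4 within 1 Mb were 0.177 to 0.303, against 0.108 for *Ddc*.

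**Figure D2:**
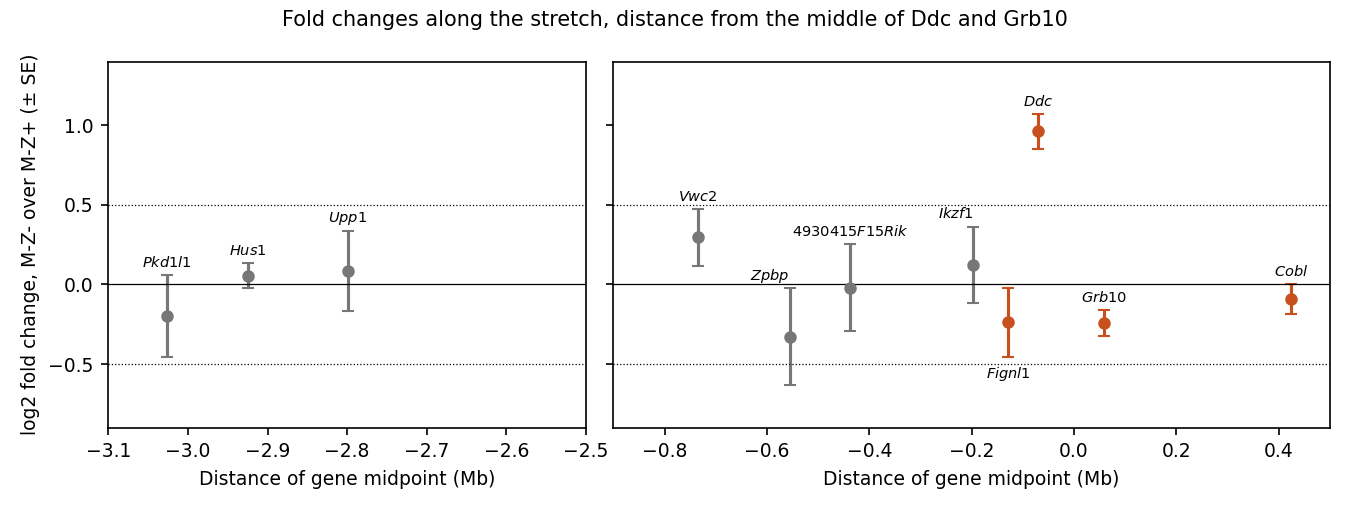
The log2 fold change of M-Z- over M-Z+ embryos, with its SE, of every tested gene within 3 Mb against the distance of the middle of the gene from the middle of the *Ddc* and *Grb10* stretch in Mb, in 2 panels with a break between them. The 4 genes described are in orange, the other 7 in grey, the dotted lines mark the fold limit of 0.5, and *Ddc* at 0.96 is the only point beyond it.

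X-linked and Y-linked transcripts moved with *Grb10* among the embryos of each genotype. *Eif2s3x*, an X-linked translation factor gene that escapes X inactivation, had 107, 105, 105, 154, 152 and 104 CPM in the M-Z+ replicates 1 to 6 and 102, 102, 157, 155, 160 and 99.8 CPM in the M-Z- replicates. *Xist*, the RNA of the inactive X chromosome, had 849 and 1195 CPM in M-Z+ replicates 4 and 5, 1132, 1435 and 3628 CPM in M-Z- replicates 3, 4 and 5, and below 1 CPM in the other 7 embryos. The Y-linked *Ddx3y* had 45.6, 80.2 and 104 CPM in M-Z+ replicates 1, 2 and 6 and 94.0, 84.2 and 107 CPM in M-Z- replicates 1, 2 and 6, and at most 0.108 CPM in the others. In each genotype the embryos with abundant *Xist* were those with the least *Grb10*, and the embryos with *Ddx3y* lay above them. M-Z+ replicate 3 had neither *Xist* nor *Ddx3y* above 1 CPM, with *Eif2s3x* at 105 CPM and *Grb10* at 1663 CPM. The labels give no sex, so no groups were formed on these transcripts, and their part in the spread of *Grb10* was not tested.

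Among the 11338 genes with at least 10 CPM, *Grb10* followed *Usp45*, a ubiquitin-specific protease gene, most closely over the 12 embryos after the genotype means were taken off, with a Pearson correlation of 0.894. *Pla2g4a*, a phospholipase A2 gene, had 0.878 and the Y-linked *Eif2s3y* 0.838. The correlation of *Grb10* with *Eif2s3x* was −0.911. With log2 CPM of *Xist* as a covariate the log2 fold change of *Grb10* was −0.20 with an SE of 0.0607, and with that of *Ddx3y* it was −0.25 with an SE of 0.0624. Without a covariate it was −0.24 with an SE of 0.0795. In the *Ddx3y* fit M-Z+ replicate 3 stands with the embryos with abundant *Xist*, although its own *Xist* was at 0.152 CPM. These fits are a description, and the part of these transcripts in the *Grb10* difference was not tested.

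**Figure D3:**
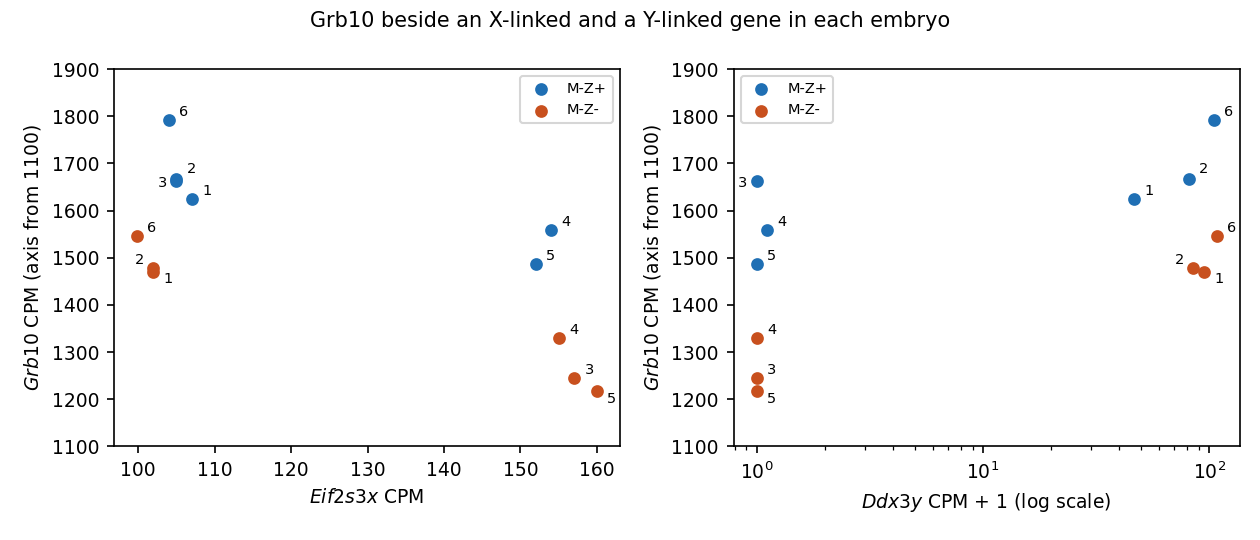
*Grb10* in CPM, on an axis that does not start at 0, against *Eif2s3x* in CPM on the left and against *Ddx3y* in CPM plus 1 on a log scale on the right; each point is 1 embryo with its replicate number, M-Z+ in blue and M-Z- in orange. The embryos at 152 to 160 CPM of *Eif2s3x* have the least *Grb10* of their genotype, and M-Z+ replicate 3, without *Ddx3y* counts, has 1663 CPM of *Grb10*.

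The embryo-to-embryo pattern of *Ddc* was a different one. The genes most like it were *Rpp21*, a subunit of RNase P, with a correlation of 0.973, *Tagln2*, transgelin 2, with 0.957, and *Tyms*, thymidylate synthase, with 0.940. *Ddc* also moved with a property of the libraries, the steepness with which log2 CPM rises with log2 gene length over the genes of a library, with a correlation of −0.804 after the genotype means were taken off. This length slope ran from 0.437 to 0.668 in M-Z+ and from 0.533 to 0.670 in M-Z- libraries, so a higher slope went with less *Ddc* within a genotype. With the slope as a covariate the log2 fold change of *Ddc* was 1.07, against 0.96 without it. *Grb10*, *Cobl* and *Fignl1* had correlations of 0.378, 0.00895 and −0.0911 with the slope. *Cobl* was most like *Adcy2*, an adenylate cyclase, with 0.878, *Gfm1*, a mitochondrial elongation factor, with 0.865 and *Tbc1d2b* with 0.850, and *Fignl1* was most like *Stat3* with 0.879, *Irak1* with 0.822 and *Adamts15* with 0.817. These are correlations of 12 embryos picked as the highest of 11338, and they are a description.

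In addition, 9 lists of other genes were read beside the 4 genes, namely pathways in which GRB10, DDC and COBL act and markers of cell types in which they are expressed. In none of them was a gene called by edgeR or DESeq2. Over the whole table edgeR called 13 of 16026 tested genes, 0.0811%, and DESeq2 called 40. Lists of this size would mostly hold none at such a share. The counts at an unadjusted edgeR p below 0.05 given for each list stand beside 1074 of 16026 over all tested genes, 6.70%. In bulk RNA of a total embryo, fewer cells of a type and less RNA per cell cannot be told apart. The median log2 fold change over all 16026 tested genes was −0.00725, which is the value against which the medians of the lists are given.

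Around GRB10, all 25 listed genes of insulin and IGF receptor signalling were tested, 17 with a higher and 8 with a lower mean in M-Z- embryos, and 1 had an unadjusted edgeR p below 0.05. Their median log2 fold change was 0.04, and the values ran from −0.13 to 0.36. The 3 of them with the highest level were *Nedd4*, the ubiquitin ligase that binds GRB10, at −0.03 (SE 0.196), the kinase gene *Akt1* at 0.01 (SE 0.0840) and the adaptor gene *Grb2* at 0.16 (SE 0.148). The receptors themselves, named after their values were seen, had wide errors, *Insr* at 0.18 (SE 0.134) and *Igf1r* at 0.36 (SE 0.269), with edgeR adjusted p of 0.756 and 0.759. *Grb14*, the closest relative of *Grb10* in the list, averaged 8.90 ± 0.474 CPM (M-Z+) against 10.2 ± 0.764 CPM (M-Z-), with an edgeR adjusted p of 0.744. *Grb7*, also in the list, averaged 10.7 ± 2.79 CPM (M-Z+) against 10.6 ± 1.29 CPM (M-Z-), with an edgeR adjusted p of 0.98. *Grb14* and *Grb7* were named after their values were seen.

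Around DDC, 18 of 21 genes of monoamine synthesis and transport were tested, 4 with a higher and 14 with a lower mean in M-Z- embryos, and 0 had an unadjusted edgeR p below 0.05. Their median log2 fold change was −0.13, of opposite sign to the value of *Ddc*. Among those with the highest level, *Pts* and *Pcbd1*, of the making and recycling of the tetrahydrobiopterin cofactor, were at −0.17 (SE 0.133) and −0.13 (SE 0.167). *Th*, tyrosine hydroxylase, which makes the dopa that DDC converts, averaged 7.41 ± 1.14 CPM (M-Z+) against 7.41 ± 1.21 CPM (M-Z-). *Dbh*, the enzyme after DDC in noradrenaline synthesis, had 4.73 ± 1.18 and 4.03 ± 0.634 CPM, with an edgeR adjusted p of 0.759. *Th* and *Dbh* were named after their values were seen.

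Beside *Ddc*, the cell types in which it may be expressed were read from their markers. Of 15 cardiomyocyte markers, all tested, 12 had a higher and 3 a lower mean in M-Z- embryos, 2 of the 15 had an unadjusted edgeR p below 0.05, against 6.70% of all tested genes, and the median log2 fold change was 0.18. The cardiac actin gene *Actc1* was at −0.02 (SE 0.102), the atrial myosin light chain *Myl7* at 0.21 (SE 0.116) and the natriuretic peptide gene *Nppa* at −0.45 (SE 0.207). The lowest edgeR adjusted p of the list, 0.586, was that of *Gata4*, named after its values were seen, with 10.1 ± 1.75 CPM (M-Z+) against 14.1 ± 2.01 CPM (M-Z-). The summed level of the cardiomyocyte list ran from 1200 to 1470 TPM in M-Z+ and from 1250 to 1480 TPM in M-Z- embryos, with no marker at 0 in all embryos. *Actc1* alone had a mean of 874 TPM over the 12 embryos, so this sum mostly follows 1 gene and says little of the other markers. Whether the transcripts of these markers came from the heart was not tested. Of the catecholamine and serotonin neuron markers 11 of 12 were tested, 2 with a higher and 9 with a lower mean, and 2 had an unadjusted p below 0.05. Their median was −0.13, and their summed level ran from 235 to 293 TPM in M-Z+ and from 239 to 267 TPM in M-Z- embryos. The 3 with the highest level were *Hand2* at 0.11 (SE 0.118), *Chgb* at −0.21 (SE 0.0753) and *Chga* at −0.25 (SE 0.117). The part of either cell type in the higher *Ddc* level was not tested.

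Hepatocyte, kidney and gut epithelium markers were read for the same reason. Of 12 hepatocyte markers, 3 had a higher and 9 a lower mean in M-Z- embryos, with 0 at an unadjusted edgeR p below 0.05, a median of −0.20, and summed levels of 4930 to 9360 TPM in M-Z+ and 3700 to 8720 TPM in M-Z- embryos. Their leading genes *Alb*, *Afp* and *Apoa1* were at −0.30 (SE 0.238), −0.17 (SE 0.197) and −0.38 (SE 0.256). Of the kidney markers 9 of 11 were tested, 2 higher and 7 lower, with 1 at an unadjusted p below 0.05, a median of −0.12, and summed levels of 66.2 to 104 TPM and 68.7 to 82.7 TPM. Their leading genes *Six2*, *Lhx1* and *Pax2* were at −0.12, −0.22 and −0.13. With means of 41.3, 19.5 and 6.58 TPM they make up most of the kidney sum, since no other kidney marker was above 3.21 TPM. Whether their transcripts came from the kidney was not tested. The lowest edgeR adjusted p of the kidney markers, 0.744, was that of *Wt1*, named after its values were seen. It had a higher mean in M-Z- embryos, at 0.31 (SE 0.133). Of the gut epithelium markers 6 of 8 were tested, 4 higher and 2 lower, with 0 at an unadjusted p below 0.05, a median of 0.01, and summed levels of 15.4 to 23.2 TPM and 14.2 to 26.3 TPM. Their leading genes *Krt20*, *Fabp2* and *Lgals4* were at −0.02, 0.03 and 0.05.

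Neuron markers were read beside *Grb10*, which neurons express from the paternal allele. All 14 were tested, 2 with a higher and 12 with a lower mean in M-Z- embryos, and 6 of the 14 had an unadjusted edgeR p below 0.05, against 6.70% of all tested genes. The list was chosen with earlier results of these data known, and nothing particular to it is read from this count. Their median log2 fold change was −0.19, with *Tubb3* at −0.24 (SE 0.101), *Ina* at −0.17 (SE 0.0764) and *Gap43* at −0.14 (SE 0.0684). The lowest edgeR adjusted p, 0.527, was that of *Nefl*, named after its values were seen, at −0.24 (SE 0.0634). The summed level of the neuron list ran from 2350 to 2940 TPM in M-Z+ and from 2300 to 2500 TPM in M-Z- embryos. The median of these markers and the value of *Grb10*, −0.24, had the same sign, and the part of neurons in the *Grb10* difference was not tested.

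Beside *Cobl*, 25 of 28 listed genes of actin nucleation were tested, 17 with a higher and 8 with a lower mean in M-Z- embryos, and 2 had an unadjusted edgeR p below 0.05. Their median log2 fold change was 0.07, with *Arpc2* and *Actr2*, subunits of the Arp2/3 complex, at −0.04 (SE 0.0883) and 0.12 (SE 0.0909) and the drebrin-like gene *Dbnl* at 0.03 (SE 0.103). *Cobll1*, the relative of *Cobl*, named after its values were seen, was at 0.15 (SE 0.120).

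**Figure D4:**
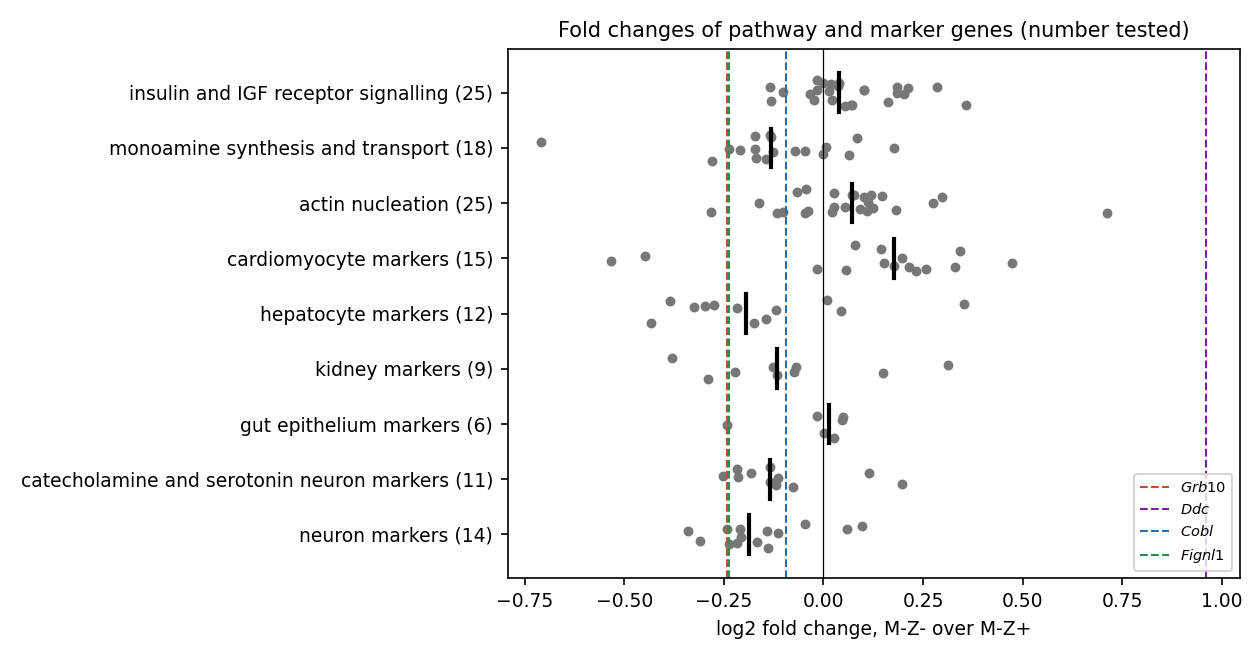
The log2 fold change of M-Z- over M-Z+ embryos of each tested gene of the 9 lists, with 1 grey point per gene, the median of each list as a black bar and the 4 described genes as dashed lines. No listed gene reaches *Ddc* at 0.96, and the medians lie between −0.20 and 0.18.

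The range of each value over the alternatives is given as a description. Over edgeR without covariates and 9 other settings, *Ddc* ran from 0.94 to 1.07, *Grb10* from −0.27 to −0.20, *Cobl* from −0.11 to −0.08 and *Fignl1* from −0.38 to −0.21.

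**Figure D5:**
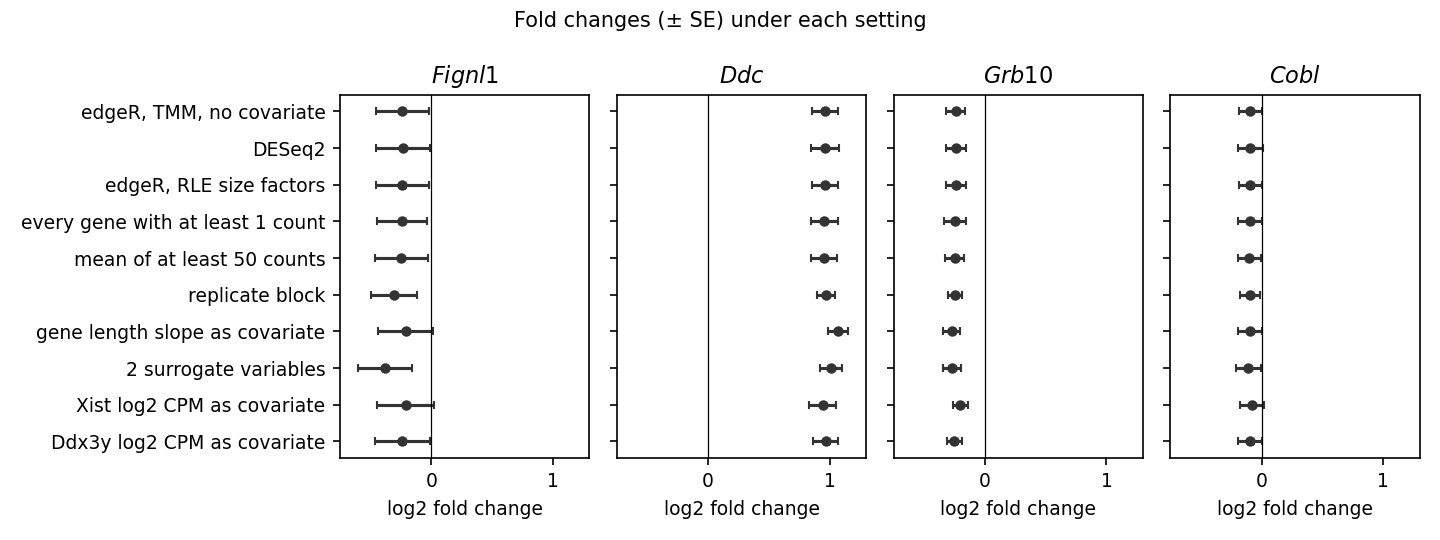
The log2 fold change of M-Z- over M-Z+ embryos with its SE for each of the 4 genes, 1 panel a gene, under edgeR without covariates and 9 other settings on the vertical axis. *Ddc* stays between 0.94 and 1.07, and *Fignl1* has the widest bars and moves the most.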

How the data were processed

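The authors deposited raw counts per gene and FPKM values made from them for 6 M-Z+ and 6 M-Z- embryos. The 12 embryos with whole-genome bisulfite sequencing were not analysed here. Per the labels, the submitters' processing notes name mm10, HISAT2 2.0.4, Trim Galore 0.4.1, Bismark 0.15.0 and Bowtie2 2.2.9 without their roles. Which program counted the reads, with which strand setting and annotation, is not given in the sources used here. Deposited positions overlapped GRCm38.p6 for 99.8% of 25595 genes matched by symbol.

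Differences were fitted in edgeR 4.0.16 under R 4.3.3 (TMM, filterByExpr, glmQLFit and glmQLFTest, Benjamini-Hochberg adjustment over 16026 genes). DESeq2 1.42.0 and sva 3.50.0 served for alternatives, and Python 3.11.15 with matplotlib 3.10.9 for figures. For edgeR the SE is the absolute log2 fold change divided by the square root of the F statistic of the quasi-likelihood test. For the DESeq2 setting it is the SE that DESeq2 gives. TPM were the deposited FPKM values scaled to the same sum in each library. The gene lengths behind the length slope were those implied by the deposited counts and FPKM values. Likeness was Pearson's correlation of log2 CPM with a prior count of 2. The fits were tested on simulated counts with known changes. Of 91 genes changed by a log2 of 1 and 109 changed by a log2 of 2, edgeR recovered 79.1% and 95.4%, with 5 false calls. DESeq2 recovered 83.5% and 98.2%, with 23 false calls.

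The 4 genes and the lists were chosen with earlier results of these data known. The text names the 4 genes, *Zfp57*, tested genes within 1 Mb, the 3 listed genes highest in TPM and the 3 genes most like each of the 4. Of a further list and 1 listed gene, the results are not reported here. All other genes were named after their values were seen. The alternatives were DESeq2, RLE size factors, the replicate block, filters of at least 1 count and of 50 counts on average, the gene length slope, 2 surrogate variables and each embryo left out. The *Xist* and *Ddx3y* covariates were added after the values were seen.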

Additional observations from a re-analysis of the deposited data

Results flagged for a closer look

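The 4 genes, *Zfp57* and the 4 tested genes within 1 Mb were examined in both genotypes for an embryo far from the others of its group, which made 18 groups of 6 embryos. Only *Ddc* in M-Z- replicate 6 stood apart, with 25.5 CPM, whereas M-Z- replicates 1 to 5 lay between 30.8 and 33.4 CPM. It lay towards the M-Z+ embryos, the highest of which had 19.2 CPM. The library of M-Z- replicate 6 also had the highest gene length slope of its genotype, 0.670. That of M-Z- replicate 5 was close, 0.660, with *Ddc* at 31.2 CPM. Chance flags about 1 in 20 such groups, or 0.9 of the 18.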

How the results depend on the processing

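The number of genes called over the whole table, 13 with edgeR, was 40 with DESeq2, 23 once the length slope of each library entered as a covariate, and 24 with 2 surrogate variables, and the cause was not tested. Leaving out each embryo in turn gave 11 to 15 called genes. It gave log2 fold changes of 0.89 to 1.02 for *Ddc*, −0.285 to −0.213 for *Grb10*, −0.145 to −0.0539 for *Cobl* and −0.36 to −0.11 for *Fignl1*. Within 1 Mb and in each of the 9 lists the count of called genes stayed at 0 with every embryo left out and in all other settings. The replicate numbers are shared by the genotypes but are not said to pair the embryos, and the correlation of the deviations of same-numbered embryos ran from 0.02 to 0.64. A replicate block gave 21 called genes, and the log2 fold changes were 0.97 for *Ddc*, −0.24 for *Grb10*, −0.10 for *Cobl* and −0.31 for *Fignl1*. With 194 to 449 *Ddc* counts per library, counting error and the spread between embryos both bear on each value, and intervals from counts are not given.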
